A study of Mus musculus with 2 samples.

Results

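The ATP-binding cassette (ABC) transporters were examined on Affymetrix arrays of 2 mouse cell lines labelled as endothelial. The members were all probe sets annotated to a single gene whose symbol starts with Abc, a subfamily letter from a to g and a digit. This gave 92 probe sets for 45 genes, of 45101 probe sets and 18193 singly annotated genes on the array. The rule reads gene symbols and no signal. SVEC4-10, an immortalised line labelled as derived from an axillary lymph node, was grown in DMEM with 10% fetal calf serum. MS-1, an immortalised line labelled as derived from pancreatic microvessels, was grown in DMEM with 5% serum. Both lines carry the SV40 large T antigen, were cultured for 3 to 5 days to confluence and were used up to passage 5. Each line contributed 1 array, so differences have no replicate check and p-values were not computed. Serum and line cannot be told apart.

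ABC proteins bind and hydrolyse ATP in a pair of conserved cassettes, and most use that energy to move a substrate across a membrane. The A and G subfamilies mainly handle lipids and sterols, the B and C subfamilies drugs, conjugates, peptides and porphyrins, and the D subfamily fatty acids and cobalamin. The E and F proteins lack membrane-spanning segments and act on ribosomes and translation. In endothelium the family is best known for cholesterol export to lipoproteins and for drug efflux at the blood-brain barrier.

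Promoter sequence is shown for 4 genes that differed by about 4-fold or more or that carry a nuclear receptor element, so that the letters stand beside the signals described below. Each line gives the 250 bases before the RefSeq start of transcription in assembly GRCm38.p6, 5′ to 3′ on the strand of the gene. Capitals mark matches, on either strand, to several motifs. These were a DR4 repeat, which is a direct repeat of NGGTNA with 4 bases between the copies and is the arrangement bound by liver X receptors. Also searched were the GC box spelled GGGCGG and the TATA box spelled TATAAA. The CCAAT box was searched by the letters of its name, and the core of the antioxidant response element as TGAC and GC with 3 bases between. The windows are Abca1 (chr4:53159896-53160145, minus strand), Abca9 (chr11:110168154-110168403, minus strand), Abcb1b (chr5:8797897-8798146, plus strand) and Abca5 (chr11:110337717-110337966, minus strand).
Abca1: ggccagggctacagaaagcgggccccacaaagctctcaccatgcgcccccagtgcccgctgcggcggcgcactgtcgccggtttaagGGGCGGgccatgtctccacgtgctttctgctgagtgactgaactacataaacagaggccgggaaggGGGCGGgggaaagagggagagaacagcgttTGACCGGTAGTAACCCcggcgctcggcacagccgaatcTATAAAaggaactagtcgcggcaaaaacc
Abca9: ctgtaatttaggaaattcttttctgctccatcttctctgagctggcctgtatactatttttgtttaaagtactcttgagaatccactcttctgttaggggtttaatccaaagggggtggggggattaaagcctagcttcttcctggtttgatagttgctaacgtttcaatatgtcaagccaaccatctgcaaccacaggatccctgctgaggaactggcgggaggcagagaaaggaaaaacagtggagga
Abcb1b: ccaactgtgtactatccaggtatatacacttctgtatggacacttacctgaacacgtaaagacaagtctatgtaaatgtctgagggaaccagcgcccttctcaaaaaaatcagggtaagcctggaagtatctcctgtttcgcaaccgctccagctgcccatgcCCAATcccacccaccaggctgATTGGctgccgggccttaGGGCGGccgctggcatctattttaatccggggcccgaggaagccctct
Abca5: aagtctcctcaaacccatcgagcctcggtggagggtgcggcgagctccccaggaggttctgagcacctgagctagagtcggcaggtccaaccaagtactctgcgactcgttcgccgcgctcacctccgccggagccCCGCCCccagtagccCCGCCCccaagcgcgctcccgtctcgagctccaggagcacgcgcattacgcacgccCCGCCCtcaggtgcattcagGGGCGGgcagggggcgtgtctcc

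The Abca1 window held a DR4 match from 67 to 52 bases before the start, 2 GC boxes and a TATA box. The letters of the DR4 search were chosen with the liver X receptor element of the Abca1 promoter in mind, so the match there is a description. A DR4 match was present in 1 of 42 windows of 35 ABC genes and in 0.621% of all 32851 windows of the same length. The Abca5 window held 4 GC boxes, the Abcb1b window 1 GC box and 2 CCAAT boxes, and the Abca9 window none of the motifs. GC boxes were in 20 of the 42 ABC windows and in 32.7% of all windows, and CCAAT boxes in 12 of 42 and 33.8%. TATA boxes were in 5 of 42 and 12.4%, and the antioxidant core in 4 of 42 and 10.2%. The motifs were matched separately, and overlapping matches of different motifs were allowed. The other 10 ABC genes, Abcg1 among them, were not in the promoter table.

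The data are scaled probe set intensities, and the background level was 17.6 on SVEC4-10 and 16.3 on MS-1. That level is the 95th percentile of 129 probe sets for odorant, pheromone and taste receptors and hair keratin-associated proteins. Where a signal was not above background it was raised to background before the ratio was taken, and the fold difference is then written as "at least". Log2 ratios are SVEC4-10 over MS-1, so a positive value means a higher signal on SVEC4-10. The error of a log2 ratio, from pairs of probe sets of 4406 genes, was 0.49 (SD). It was 0.57 in the 1469 dimmest of those genes, 0.47 in the middle 1468 and 0.42 in the 1469 brightest. This error reflects only probe sets of 1 gene on the same 2 arrays, all above background on both. It leaves out variation between cultures, RNA preparations and arrays, so it does not measure how repeatable a difference is. Signals of different probe sets do not rank genes by abundance, and each value is compared only with the same probe set on the other array.

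The labelled cell type was checked with marker genes. All 10 endothelial markers were higher on MS-1, with a summed signal of 212 on SVEC4-10 and 28015 on MS-1. On the SVEC4-10 array 7 of the 10 were not above background, including Pecam1 (signal 1.27 on SVEC4-10, 4777 on MS-1), the adhesion molecule CD31. The 8 mesenchymal markers summed to 24121 on SVEC4-10 and 96.2 on MS-1, with 7 not above background on MS-1. The 5 mesothelial markers summed to 14648 on SVEC4-10 and 58.2 on MS-1. The 5 smooth muscle markers summed to 10281 on SVEC4-10 and 64.9 on MS-1, with Myh11 and Cnn1 not above background on either array. The leukocyte markers summed to 61.7 on SVEC4-10 and 3694 on MS-1, almost all of it from Cd68 (45.9 on SVEC4-10, 3645 on MS-1), a lysosomal protein of macrophages, while Ptprc, Cd3e and Itgam were not above background on either array. The epithelial markers summed to 139.7 on SVEC4-10 and 355 on MS-1, but they differed in direction. Krt8 had 95.4 on SVEC4-10 and 18.3 on MS-1, whereas Krt18 had 24.5 and 201 and Krt19 had 8.93 and 121. Epcam and Cdh1 were not above background on either array at the probe set used. The pancreatic markers summed to 119.8 on SVEC4-10 and 37.97 on MS-1, with most of the SVEC4-10 sum from Cela1 (85.7 on SVEC4-10, 14.0 on MS-1). The endothelial label of SVEC4-10 was thus not borne out by its defining markers. These marker differences run alongside every ABC difference below, and their part in them was not tested. Fewer cells of a type and less RNA per cell cannot be told apart.

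Of the 45 ABC genes, 31 (68.9%) exceeded background on either array or both, against 68.5% of all 18193 genes. They comprised 22 genes above background on both arrays, 3 on SVEC4-10 only and 6 on MS-1 only. Higher by 2-fold or more on SVEC4-10 were 3 genes, Abca9, Abca1 and Abcg4, which is 9.68% of the measured members against 15.2% of all 12454 measured genes. Higher by 2-fold or more on MS-1 were 5 genes, Abcg1, Abca5, Abcb1b, Abca4 and Abcd4, which is 16.1% of the members against 12% of all measured genes. At 4-fold or more, Abca9 alone was higher on SVEC4-10 (3.23% of members against 5.65% of all measured genes), and Abcg1 and Abca5 on MS-1 (6.45% against 4.24%). Of the other 23, 18 were above background on both arrays and less than 2-fold apart, 10 of them within the error of 0.49. The remaining 5 (Abcb1a, Abcb9, Abcb11, Abcc8 and Abcg8) were at background on 1 array, so their ratios are lower bounds that do not place them under 2-fold. The median log2 ratio of the members was -0.29, against 0.01 for all measured genes, with quartiles of -0.70 and 0.29 against -0.50 and 0.58. Genes at background on 1 array enter these medians at their lower bound. With signals rescaled to the added poly-A transcripts, every ratio was lower by 0.51, and 2 ABC genes were 2-fold or more higher on SVEC4-10 and 12 on MS-1. Under that scaling 8.50% of all measured genes were 2-fold or more higher on SVEC4-10 and 25.4% on MS-1. Of the ABC genes at least 2-fold apart, 37.5% were higher on SVEC4-10 as deposited and 14.3% under that scaling. These last shares are of the counted ABC genes, so they do not compare with the shares of all measured genes.

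**Figure D1:**
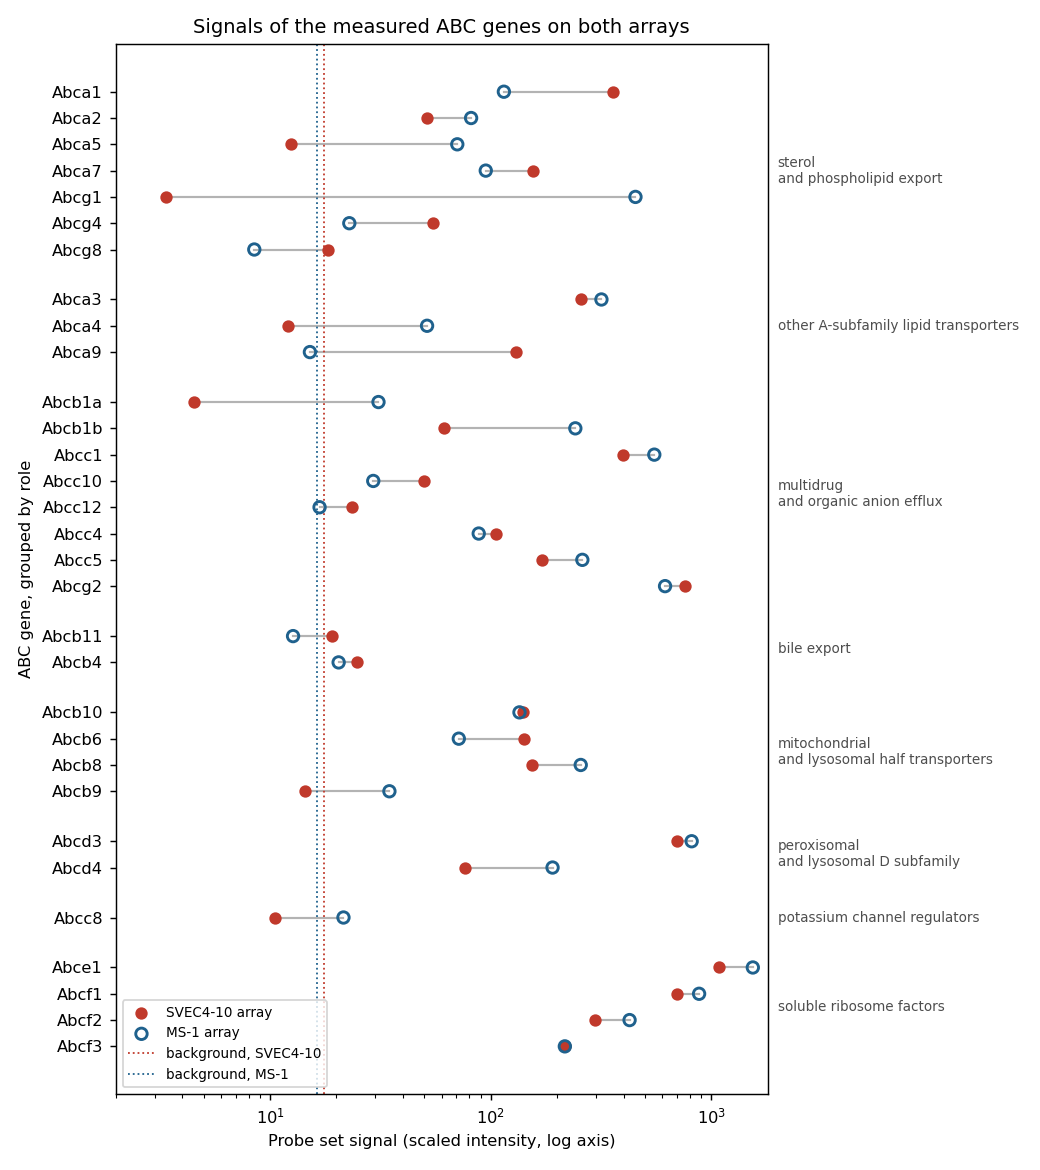
Signals of the 31 measured ABC genes on a log axis (scaled intensity), grouped by role, with filled points for the SVEC4-10 array, open circles for the MS-1 array and dotted lines at each array's background. The widest gap is that of Abcg1 (3.36 on SVEC4-10, 453 on MS-1), and the 4 soluble ribosome factors have nearly touching points.

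**Figure D2:**
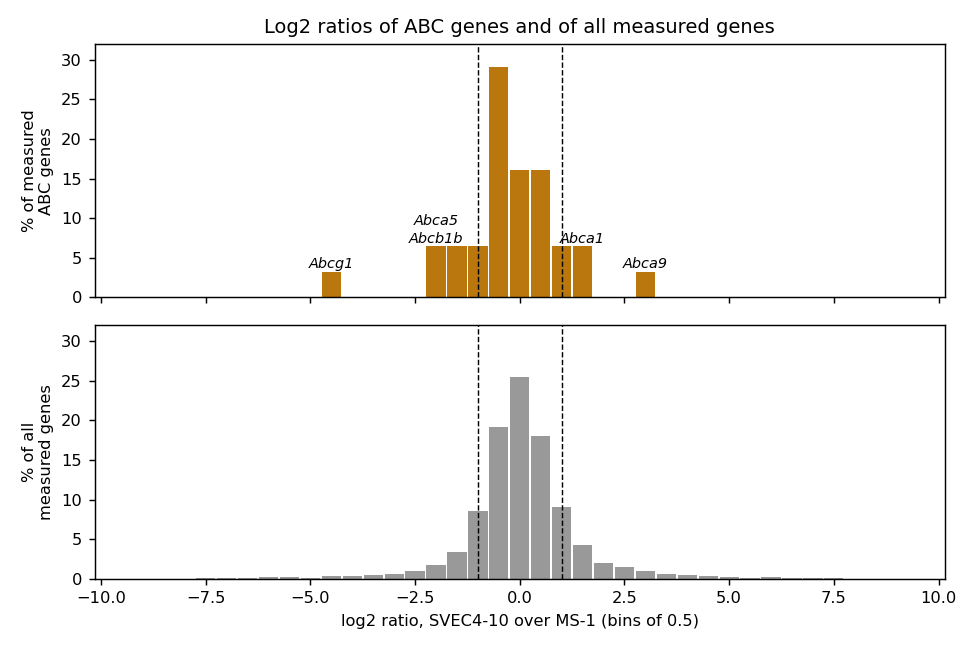
Share of genes (per cent, y axes) in bins of 0.5 of the log2 ratio of SVEC4-10 over MS-1 (x axis), for the 31 measured ABC genes above and all 12454 measured genes below, with dashed lines at 2-fold. Most ABC genes lie between the lines, 5 of these as lower bounds, and Abcg1 and Abca9 stand at the ends.

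The sterol and phospholipid exporters differed in both directions. Of 8 members, 7 were measured, with a median log2 ratio of 0.17. At 2-fold or more, 2 (28.6%) were higher on SVEC4-10 and 2 (28.6%) on MS-1, against 15.2% and 12% of all measured genes. A further 2 were under 2-fold apart and Abcg8 had only a bound. The role groups here and below were drawn up with earlier results of these data known, so their shares are descriptions. Abca1 hands cholesterol and phospholipid to lipid-poor apolipoprotein A-I, and Abcg1 passes cholesterol to high density lipoprotein, and these partners lay on opposite sides. Abcg1 had a signal of 3.36 on SVEC4-10, not above background, and 453 on MS-1, at least 25.7-fold higher on MS-1 (log2 ratio -4.68). Its other probe set had 0.900 on SVEC4-10 and 68.4 on MS-1, a log2 ratio of -1.96 at the background bound. Both Abcg1 probe sets were at background on SVEC4-10 and clearly above it on MS-1.

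Abca1 had a signal of 359 on SVEC4-10 and 115 on MS-1, 3.12-fold higher on SVEC4-10 (log2 ratio 1.64). Its further probe sets had 93.2 and 65.4 on SVEC4-10, against 19.5 and 15.1 on MS-1, with a log2 ratio of 2.26 and, where MS-1 was not above background, a lower bound of 2.01. All 3 Abca1 probe sets were thus higher on SVEC4-10, by more than 3 times the error of 0.49 between probe sets.

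Abca5, a transporter of late endosomes and lysosomes, had 12.4 on SVEC4-10, not above background, and 70.6 on MS-1, at least 4.01-fold higher on MS-1. The second Abca5 probe set was not above background on either array. Abcg4, a close relative of Abcg1 known mainly from the nervous system, had 54.7 on SVEC4-10 and 22.9 on MS-1, 2.39-fold higher on SVEC4-10. Its other probe set had 16.1 on SVEC4-10 and 20.0 on MS-1, a lower bound of -0.18 since SVEC4-10 was not above background, so the Abcg4 probe sets did not share a direction. Abca7, which moves phospholipids and acts in phagocytosis, had 156 on SVEC4-10 and 95.02 on MS-1, a log2 ratio of 0.71. Abca2, an endolysosomal lipid transporter, had 51.7 on SVEC4-10 and 81.5 on MS-1, a log2 ratio of -0.66. Both of these were under 2-fold. Abcg8, which pairs with Abcg5 to export sterols from liver and gut, barely passed background on SVEC4-10 (18.3) and did not on MS-1 (8.49). Abcg5 was not above background on either array.

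Genes that supply or control cholesterol efflux were described beside the exporters. Of 21 listed genes 17 were on the array and 14 were measured, with a median log2 ratio of 0.02. Higher by 2-fold or more were 2 (14.3%) on SVEC4-10 and 1 (7.14%) on MS-1, against 15.2% and 12% of all measured genes. Srebf2, the transcription factor that drives cholesterol synthesis and uptake, had 612 on SVEC4-10 and 199 on MS-1, 3.07-fold higher on SVEC4-10. Mylip, a ubiquitin ligase for the low density lipoprotein receptor and a liver X receptor target, had 46.1 on SVEC4-10 and 17.8 on MS-1, 2.60-fold higher on SVEC4-10. Ch25h, which makes the oxysterol 25-hydroxycholesterol, had 0.423 on SVEC4-10 and 3878 on MS-1, at least 220-fold higher on MS-1. Npc2, which moves cholesterol out of lysosomes, had 6119 on SVEC4-10 and 3219 on MS-1, a log2 ratio of 0.93. Oxysterols of the kind Ch25h makes are ligands of the liver X receptors in the textbook account. Nr1h3, the liver X receptor alpha, was near background, with 13.7 on SVEC4-10 and 19.0 on MS-1. The gene of the other liver X receptor, Nr1h2, was listed but had no singly annotated probe set, so its level is not known here. The apolipoprotein genes Apoa1 and Apoe were not above background on either array.

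Among the other A-subfamily lipid transporters, most were not detectable. Of 10 such genes on the array, 7 were not above background on either array, namely Abca6, Abca8a, Abca8b, Abca12, Abca13, Abca14 and Abca16. Abca9 had a signal of 130 on SVEC4-10 and 15.2 on MS-1, at least 7.95-fold higher on SVEC4-10 (log2 ratio 2.99). Its second probe set had 20.8 on SVEC4-10 and 4.83 on MS-1, with a lower bound of only 0.35 on the log2 scale. Both Abca9 probe sets were above background on SVEC4-10 and not on MS-1. Abca4, the retinoid lipid transporter of photoreceptors, had 12.1 on SVEC4-10, not above background, and 51.5 on MS-1, at least 2.92-fold higher on MS-1 by its single probe set. Abca3, which loads lung surfactant lipids into lamellar bodies, had 257 on SVEC4-10 and 318 on MS-1. Its 2 measured probe sets both gave a log2 ratio of -0.31, within the error.

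Among the multidrug and organic anion pumps, 12 were on the array and 8 were measured. Of these 0 were 2-fold or more higher on SVEC4-10 and 1 (12.5%) on MS-1, against 15.2% and 12% of all measured genes. A further 6 were under 2-fold apart and Abcb1a had only a bound. The median log2 ratio of the 8 was -0.10. Mice have a pair of P-glycoprotein genes, Abcb1a and Abcb1b, which pump many lipophilic drugs, and Abcb1a is the form of the mouse blood-brain barrier. Abcb1b had 61.4 on SVEC4-10 and 242 on MS-1, 3.94-fold higher on MS-1 (log2 ratio -1.98). Abcb1a had 4.52 on SVEC4-10, not above background, and 31.0 on MS-1, at least 1.76-fold higher on MS-1. Its other probe set had 5.58 on SVEC4-10 and 23.5 on MS-1. All 3 measured P-glycoprotein probe sets were therefore higher on MS-1, but the genes are close copies and shared hybridisation was not tested.

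Abcg2, the breast cancer resistance protein, had 762 on SVEC4-10 and 617 on MS-1, a log2 ratio of 0.30. Abcc1, which exports glutathione conjugates and leukotriene C4, had 399 on SVEC4-10 and 551 on MS-1, with log2 ratios of -0.47 and -0.41 at its 2 probe sets. Abcc4, an exporter of cyclic nucleotides and prostaglandins, had 106 on SVEC4-10 and 88.3 on MS-1, a log2 ratio of 0.27. All 3 of these were within the error of 0.49. Abcc5, another cyclic nucleotide exporter, had 172 on SVEC4-10 and 260.3 on MS-1 at the probe set used, a log2 ratio of -0.60. Its 8 measured probe sets, of 10 in all, ranged from -0.61 to 0.61 and gave no common direction. Abcc10, a drug pump, had 49.7 on SVEC4-10 and 29.4 on MS-1, a log2 ratio of 0.76 at the brighter probe set and a lower bound of -0.01 at the other. Abcc12 was close to background on both arrays, with 23.5 on SVEC4-10 and 16.8 on MS-1. Abcc2, Abcc3, Abcc6 and Abcg3 were not above background on either array.

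Glutathione and xenobiotic response genes were described beside these pumps. All 21 listed genes were on the array and 18 were measured, with 3 (16.7%) 2-fold or more higher on SVEC4-10, 4 (22.2%) on MS-1, against 15.2% and 12% of all measured genes, and a median log2 ratio of -0.46. Gsta4, a glutathione transferase for lipid aldehydes, had 2594 on SVEC4-10 and 2.13 on MS-1, at least 159-fold higher on SVEC4-10. Ahr, the aryl hydrocarbon receptor, had 754 on SVEC4-10 and 58.1 on MS-1, 13.0-fold higher on SVEC4-10. That is a log2 ratio of 3.70, against 1.55 at its other measured probe set. Slco4a1, an organic anion uptake carrier, had 25.7 on SVEC4-10 and 434 on MS-1, 16.9-fold higher on MS-1. The large differences in this list thus lay in both directions. Mgst3, a microsomal glutathione transferase, had 74.2 on SVEC4-10 and 560 on MS-1, 7.55-fold higher on MS-1. Nr1i2 and Nr1i3, the xenobiotic nuclear receptors PXR and CAR, were not above background on either array. Of 6 genes that mark the brain endothelial barrier, Cldn5, Mfsd2a and Slco1c1 were not above background on either array. The glucose carrier Slc2a1 had 714 on SVEC4-10 and 3546 on MS-1.

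Bile exporters were close to background on both arrays. Abcb4, which flips phosphatidylcholine into bile, had 24.8 on SVEC4-10 and 20.5 on MS-1. Abcb11, the bile salt export pump, had 19.0 on SVEC4-10 and 12.7 on MS-1, not above background on MS-1. The log2 ratio of Abcb4, 0.28, was within the error, and that of Abcb11 was a lower bound of 0.23 (0.58 with no background floor).

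Of the single-cassette transporters of mitochondria and lysosomes, 4 of 4 on the array were measured, 3 were under 2-fold apart and Abcb9 had only a bound, with a median log2 ratio of -0.34. Abcb6, linked to porphyrin transport, had 141 on SVEC4-10 and 71.7 on MS-1, 1.97-fold higher on SVEC4-10. Abcb9, a lysosomal peptide transporter, had 14.5 on SVEC4-10, not above background, and 34.8 on MS-1, at least 1.97-fold higher on MS-1. Abcb6 thus lay just under 2-fold, while the bound for Abcb9 leaves a larger difference possible (log2 ratio -1.26 with no background floor). Abcb8, of the mitochondrial inner membrane, had 154 on SVEC4-10 and 256 on MS-1, with log2 ratios of -0.74 and -0.54 at its 2 probe sets. Abcb10, which supports haem synthesis in mitochondria, had 140.1 on SVEC4-10 and 135 on MS-1, a log2 ratio of 0.05.

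Haem and iron-sulfur genes were described beside these transporters. Of 17 listed, 15 were on the array and all 15 were measured, with 3 (20%) 2-fold or more higher on SVEC4-10, 3 (20%) on MS-1, against 15.2% and 12% of all measured genes, and a median log2 ratio of -0.05. Alad, an early enzyme of haem synthesis, had 2223 on SVEC4-10 and 375 on MS-1, 5.92-fold higher on SVEC4-10. Fech, which inserts iron to complete haem, had 811 on SVEC4-10 and 292 on MS-1, 2.78-fold higher on SVEC4-10. Slc25a37, the mitochondrial iron importer mitoferrin, had 126 on SVEC4-10 and 449.8 on MS-1, 3.56-fold higher on MS-1. Hmox1, which degrades haem, had 626 on SVEC4-10 and 2062 on MS-1, 3.30-fold higher on MS-1. At the probe set used, the other 5 listed enzymes of haem synthesis were within the error, from -0.36 (Alas1) to 0.23 (Uros). They did not all share the direction of Alad and Fech. Further probe sets gave -1.36 for Cpox and -0.51 for Alas1, beyond the error.

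In the D subfamily, Abcd3 and Abcd4 were measured, and Abcd2, a peroxisomal transporter of very long chain fatty acids, was at background on both arrays. Abcd3, an abundant peroxisomal membrane protein, had 702 on SVEC4-10 and 814 on MS-1, a log2 ratio of -0.21 and within the error. Abcd4, which releases cobalamin (vitamin B12) from lysosomes, had 76.5 on SVEC4-10 and 191 on MS-1, 2.49-fold higher on MS-1. Its second probe set was not above background on SVEC4-10 (1.27) and near it on MS-1 (21.7), with a lower bound of -0.30.

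The 9 measured cobalamin genes had a median log2 ratio of 0.31. Of these 1 (11.1%) was 2-fold or more higher on SVEC4-10 and 2 (22.2%) on MS-1, against 15.2% and 12% of all measured genes. The 2 cobalamin genes higher on MS-1 were Lmbrd1, the lysosomal partner of Abcd4, and Mmachc, which processes cobalamin in the cytosol. Lmbrd1 had 558 on SVEC4-10 and 1399.8 on MS-1, a log2 ratio of -1.33, although a further probe set gave 0.81. Mmachc had 79.7 on SVEC4-10 and 210.4 on MS-1, 2.64-fold higher on MS-1. Mmadhc, the cytosolic partner of Mmachc, had 1294 on SVEC4-10 and 853 on MS-1, a log2 ratio of 0.60, so the genes around Abcd4 did not all share its direction. Mmab, a mitochondrial cobalamin enzyme, had 127 on SVEC4-10 and 59.2 on MS-1, 2.15-fold higher on SVEC4-10. Cd320, the receptor for cobalamin uptake, had 275 on SVEC4-10 and 149.5 on MS-1, a log2 ratio of 0.88. The 13 measured peroxisome and fatty acid genes had a median of 0.04, and 12 were under 2-fold apart. Of the 13, 1 (7.69%) was 2-fold or more higher on SVEC4-10 and 0 on MS-1, against 15.2% and 12% of all measured genes. The gene higher on SVEC4-10 was Pex14, a docking factor for peroxisomal import, with 229 on SVEC4-10 and 111 on MS-1. Acox3, a peroxisomal oxidase, had a log2 ratio of -0.87, Pex3, a membrane assembly factor, 0.79, and Slc27a4, a fatty acid transport protein, 0.77. Further probe sets passed 2-fold for Pex19 (-1.52) and Acaa1a (1.58).

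The potassium channel regulators were at or near background. Abcc8, the sulfonylurea receptor SUR1 of pancreatic beta cells, had 10.5 on SVEC4-10, not above background, and 21.5 on MS-1. None of the 3 probe sets of Abcc9, the receptor SUR2 of muscle and vessels, was above background on either array. Of the pore subunits, Kcnj8 was at background on both arrays, whereas Kcnj11 had 113 on SVEC4-10 and 638 on MS-1, 5.63-fold higher on MS-1.

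The soluble members were measured on both arrays and all 4 were under 2-fold apart, with a median log2 ratio of -0.42. Abce1, which splits ribosomes after termination, had 1087 on SVEC4-10 and 1542 on MS-1, a log2 ratio of -0.50, with its 3 probe sets from -0.78 to -0.17. Abcf1, which binds initiation factor eIF2, had 702 on SVEC4-10 and 880.1 on MS-1, and its 6 probe sets ranged from -0.67 to 0.49. Abcf2 had 298 on SVEC4-10 and 426 on MS-1, with log2 ratios of -0.52 and -0.20. Abcf3 had 218 on SVEC4-10 and 217 on MS-1, with its 3 probe sets from 0.01 to 0.72. Abce1 and Abcf2 lay just beyond the error of 0.49 and Abcf1 and Abcf3 inside it. The 10 measured genes of ribosome recycling and Gcn2 control had a median of -0.42, and 9 were under 2-fold apart. Of the 10, 0 were 2-fold or more higher on SVEC4-10 and 1 (10%) on MS-1, against 15.2% and 12% of all measured genes. The gene higher on MS-1 was Eif2s3x, a subunit of eIF2, with 959 on SVEC4-10 and 2595 on MS-1. Gcn1, an activator of the kinase Gcn2, had a log2 ratio of -0.95, Hbs1l, a ribosome rescue factor, 0.64, and Nip7, a ribosome assembly factor, -0.56. Measured probe sets ranged from -1.63 to -0.51 for Gcn1 and from 0.48 to 1.62 for Hbs1l, so some passed 2-fold. So did probe sets of Gspt1 (-0.11 to 1.98), Eif2s2 (-0.96 to 1.78) and Eif5 (-1.82 to -0.13).

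Some ABC genes carry other symbols. Tap1 and Tap2 form the B-subfamily peptide transporter that loads class I molecules. Tap1 had 192 on SVEC4-10 and 116 on MS-1, a log2 ratio of 0.73, and Tap2 had 185 on SVEC4-10 and 109 on MS-1, a log2 ratio of 0.77. Both were under 2-fold and in the same direction. The 9 peptide-loading genes, which include Tap1 and Tap2, had a median of 0.39. Of the 9, 1 (11.1%) was 2-fold or more higher on SVEC4-10 and 0 on MS-1, against 15.2% and 12% of all measured genes. The gene higher on SVEC4-10 was Tapbp, the tapasin that bridges Tap1 and class I. It was 5.14-fold higher (log2 ratio 2.36), with 1.36 at its other measured probe set. Erap1, a peptide-trimming enzyme, had a log2 ratio of 0.94. Cftr, the chloride channel of the C subfamily, was not above background on either array.

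Probe sets of the same ABC gene could be compared for 17 genes. In 6 of them the log2 ratios spread over more than 1 unit, and in 5 the probe sets gave both signs. The widest spreads were those of Abcg1 (-4.68 to -1.96) and Abca9 (0.35 to 2.99), where the dimmer probe set was limited by background. Abcb1b and Abca5 each had 1 measured probe set, and Abca4 had 1 in all, so no second probe set bears on them.

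**Figure D3:**
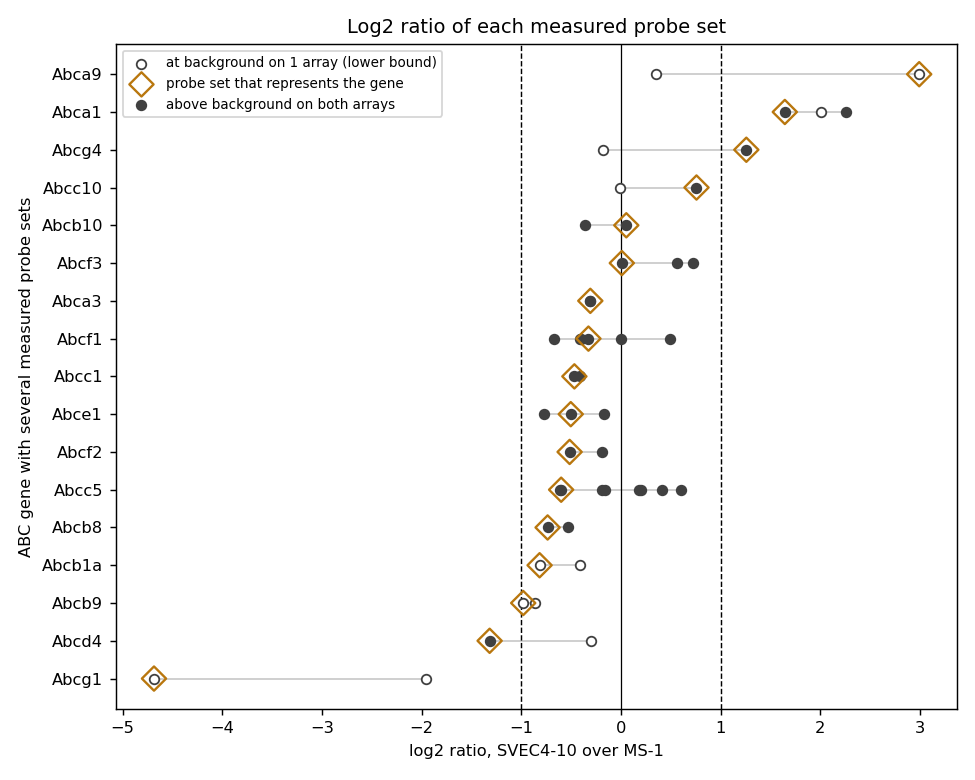
Log2 ratio of SVEC4-10 over MS-1 (x axis) for every measured probe set of the 17 ABC genes with several, filled where above background on both arrays, open where at background on 1 array (a lower bound), with a diamond around the probe set that represents the gene. All 3 probe sets of Abca1 lie right of the 2-fold line and both of Abcg1 left of it, whereas those of Abcc5 lie on both sides of 0.

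Of the 8 genes at least 2-fold apart, Abca1, Abcg1, Abca5 and Abcb1b were so in all 9 alternative settings tried. Abca5 and Abcb1b had 1 measured probe set each, so the 3 choices of probe set could not move their ratios. Over the settings, log2 ratios ran from 1.13 to 1.97 for Abca1, from -7.07 to -1.96 for Abcg1, from -2.52 to -1.003 for Abca5 and from -2.49 to -1.97 for Abcb1b. Abca9 dropped below 2-fold with its probe set of smallest ratio (0.35), and Abca4 with background doubled (-0.55). Abcd4 dropped below 2-fold in the 3 settings that let its second probe set count (-0.81 to -0.30). Abcg4 did so in 4 of the 8 settings in which it was measured, from 0.75 to -0.18. It had no value without the less specific probe sets.

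**Figure D4:**
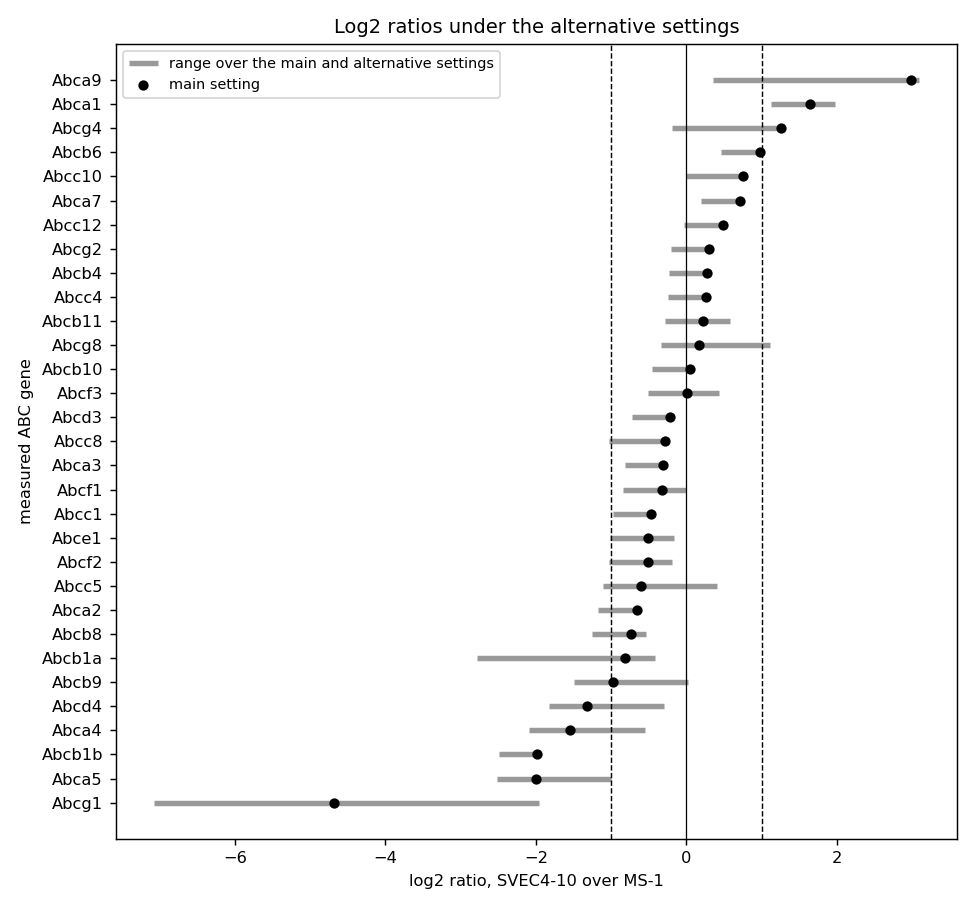
Log2 ratio of SVEC4-10 over MS-1 (x axis) of the 31 measured ABC genes under the main setting (points), with dashed lines at 2-fold. Grey bars give its range over the main setting and those of the 9 alternative settings in which the gene was measured. The bars of Abca1, Abcg1, Abca5 and Abcb1b stay outside the lines, while those of Abcg4, Abcb9 and several other genes reach or cross 0. Abca5 and Abcb1b had 1 measured probe set each, so the choices of probe set could not widen their bars.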

How the data were processed

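Total RNA (6 µg) of 1 culture per line was labelled with biotin for Affymetrix arrays, per the labels' protocols. The authors deposited linear intensities, with 1 value for each probe set. How probes were summarised is not given in the sources used here. A 2%-trimmed mean of 150.001 was found on each array, so the authors' deposited intensities had been scaled to a common target, and they were used as deposited. This assumes equal total signal in both lines.

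Of 45101 probe sets, 64 were controls, 34945 had 1 gene in the platform annotation (34741 matched to the RefSeq table of GRCm38.p6, all 45 ABC genes among them), 932 with several genes were left out, and the rest were unnamed here. A gene was represented by its brightest probe set by mean log2 signal, avoiding cross-hybridising ones (_x_) where another existed, and was measured if above background on 1 array or both. All measured members were named, with Tap1, Tap2, Cftr and up to 4 measured genes of each pathway list by absolute ratio. Pathway genes are given at that brightest probe set unless stated, and their further probe sets can differ. Nr1h3, Apoa1, Apoe, Nr1i2, Nr1i3, Kcnj8, Alas1, Uros, Cpox, Mmadhc, Pex19, Acaa1a, Gspt1, Eif2s2, Eif5 and the single marker genes were named after their values were seen. No test was possible with 1 array per line, so genes at least 2-fold apart were counted, and the number of arrays limits the precision. The members, role groups and pathway lists were chosen with earlier results of these data known, although the member rule itself reads only symbols. The steps were tested on simulated arrays. Changes were put only into bright genes there, so that test does not bear on ratios of dim genes or on lower bounds. Python 3.11.15, pandas 2.3.3 and numpy 2.4.6 were used. The alternatives were 3 scalings, 3 background treatments, 3 choices of probe set and a 4-fold threshold.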

Additional observations from a re-analysis of the deposited data

How the results depend on the processing

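No paired analysis was possible because each line has 1 array, and leaving out a replicate was not possible for the same reason. Scaled to the poly-A controls, 12 ABC genes in place of 5 were at least 2-fold higher on MS-1. Of all measured genes, 25.4% in place of 12% were. The median log2 ratio of the ABC genes was then -0.80 in place of -0.29, while the median of all measured genes was -0.50 in place of 0.01. With no background floor, 8 ABC genes were at least 2-fold higher on MS-1 and 4 on SVEC4-10, since values below background then enter as they are. Of all measured genes, 16.1% were then at least 2-fold higher on MS-1, up from 12%, and 17.9% on SVEC4-10, up from 15.2%. With background set lower, at percentile 40 over probe sets, the median was -0.071, against -0.0073 for all measured genes (37 ABC genes measured). With the probe set of smallest ratio, which by construction favours small differences, 1 ABC gene was 2-fold or more higher on SVEC4-10. Of all measured genes, 11.1% in place of 15.2% were. The ABC median was then -0.17 and Abcg4 turned to -0.18. At 4-fold, 1 ABC gene (3.23%) was higher on SVEC4-10 and 2 (6.45%) on MS-1, against 5.65% and 4.24% of all measured genes. Quantile normalization, centring on the median, doubled background, the mean over probe sets and leaving out less specific probe sets kept each count within 1.5 times its value. Of the 23 genes not called at 2-fold, 5 changed sign in at least 1 setting other than the poly-A scaling, and 11 with that scaling, which lowers every ratio alike, counted too. Of the 31 measured genes, 8 had both signals under 3 times background.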

Other observations

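Several ABC genes lie next to each other in the RefSeq gene order with no other protein-coding gene between them. On chromosome 11 the order is Abca8b, Abca8a, Abca9, Abca6 and Abca5. In this row Abca9 was at least 7.95-fold higher on SVEC4-10 and Abca5 at least 4.01-fold higher on MS-1, while Abca6, Abca8a and Abca8b were not above background on either array. On chromosome 5 the order is Abcb1a, Abcb1b and Abcb4. There Abcb1a and Abcb1b had log2 ratios of -0.82 (a bound) and -1.98, whereas Abcb4 had 0.28. On chromosome 17 Abcg5 and Abcg8 are adjacent, and both were at or near background on both arrays. These values are descriptions of 1 array per line.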
